A study of Acomys cahirinus and Mus musculus with 6 samples.

Results

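Cluster 9 of the suprabasal interfollicular keratinocytes held 1125 of the 39577 cells in the series, chosen by the deposited cell type name (IFE suprabasal) together with the deposited cluster number. The suprabasal keratinocytes as a whole were 8442 cells in 11 of the 47 clusters. The cells came from healing ear punches in ear pinna skin, and each of the 6 groups was 1 library of droplet single-cell RNA sequencing, which counts unique molecular identifiers (UMIs). There were no replicates, so no test was run and every difference compares libraries, not conditions.

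Of these libraries, 4 came from wild-type spiny mice (Acomys cahirinus, a rodent known for closing ear holes with new tissue). They had been injected from day 12 to day 15 with DMSO, an ERK inhibitor (sample title PD), an ErbB2 inhibitor (TAK) or an FGFR1/2/3 inhibitor (AZD). The other two came from CD1 laboratory mice (Mus musculus) that received beads with either PBS or FGF2/Nrg1 on day 10. The number of animals behind a library, and the animals' age and sex, were not given in the labels. Both species were counted under mouse gene names, so spiny mouse values hold only what was counted under those names, and no ratio was taken across species.

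The upper layers of the epidermis are built from keratinocytes that leave the basal layer, switch from keratins 5 and 14 to keratins 1 and 10, and end as the cornified sheet. After injury, keratinocytes near the wound make keratins 6, 16 and 17, the alarm proteins S100a8 and S100a9, and small proline-rich and stefin proteins. Stefins are small inhibitors of cysteine proteases of the cathepsin family, and in laboratory mice their genes form a cluster of related copies. FGF and ErbB receptors both signal through ERK, the last kinase of a growth factor cascade that acts on keratinocyte division and differentiation.

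The 7 genes given as markers of cluster 9 were Krt16, Krt6a, Krt1, Stfa3, Stfa1, Csta1 and Sprr1b. On GRCm38, Krt16 lies at chr11:100246091-100248902, Krt6a at chr15:101689910-101694307 and Krt1 at chr15:101845426-101850794, all on the minus strand. Sprr1b, which encodes a cornified envelope precursor, lies at chr3:92436809-92438789 (minus). All of these are protein-coding genes in GENCODE vM21.

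Of the 7 markers, 3 are stefins from a single stretch of mouse chromosome 16, and their sequences are shown because reads of related genes can be assigned to the wrong gene. Each run below is 75 bases of coding sequence (GENCODE vM21, GRCm38), 5′ to 3′ in the direction of the gene. It joins exons 2 and 3, and the capitals mark the codons of the loop with which stefins enter the protease.
Stfa1: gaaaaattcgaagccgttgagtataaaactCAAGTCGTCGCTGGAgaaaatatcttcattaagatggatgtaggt
Stfa3: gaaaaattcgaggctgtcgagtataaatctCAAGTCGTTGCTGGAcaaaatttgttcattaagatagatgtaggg
Csta1: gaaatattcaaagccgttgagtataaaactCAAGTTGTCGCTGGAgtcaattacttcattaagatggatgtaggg
The stretch of Stfa1 spans chr16:36280505-36285181 (plus), that of Stfa3 chr16:36450723-36452213 (minus) and that of Csta1 chr16:36122358-36125036 (minus), each with an intron inside.

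Over the whole coding sequence, Stfa1 and Stfa3 shared 79.8% of aligned bases, Stfa1 and Csta1 81.6%, and Stfa3 and Csta1 76.6%. Libraries of this kind read the 3′ end, and over the last 300 bases of the transcript Stfa1 and Stfa3 still shared 79.4%, against 50.6% for Stfa1 and Csta1 and 49.7% for Stfa3 and Csta1. Whether this identity moved counts between Stfa1 and Stfa3 was not tested. In the spiny mouse, whose own stefin sequences were not used here, the 3 names may not stand for 3 separate genes.

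Cluster 9 had 517 cells in the DMSO library, 367 with the ErbB2 inhibitor, 176 with the FGFR1/2/3 inhibitor, 29 with the ERK inhibitor, 13 with PBS beads and 23 with FGF2/Nrg1 beads. The summed depth of these cells was 5186458, 5437417, 3006281, 732828, 222778 and 290410 UMIs in that order. The median depth of a member cell was 8311 UMIs with DMSO and 14786, 16492 and 28369 with the ErbB2, FGFR1/2/3 and ERK inhibitors, so the DMSO cells were the shallowest. As a share of the suprabasal cells, cluster 9 made up 17.2% with DMSO (exact Clopper-Pearson 95% interval 15.9 to 18.6), 11.7% with the ErbB2 inhibitor (10.6 to 12.9), 14.7% with the FGFR1/2/3 inhibitor (12.7 to 16.8) and 19% with the ERK inhibitor (13.1 to 26.1). It was 2.66% with PBS beads (1.42 to 4.5) and 4.87% with FGF2/Nrg1 beads (3.11 to 7.22). These sizes are a description, since the clusters were made from the same expression values, and intervals here and below cover counting error only. Cell barcodes recur in more than 1 library 184 times in the series, and no 2 member cells of different libraries shared one.

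Levels are given as CPM, the UMIs of a gene scaled to a fixed total over the member cells of a library. Krt16 stood at 3072 CPM with DMSO, 2171 with the ErbB2 inhibitor, 3645 with the FGFR1/2/3 inhibitor and 1355 with the ERK inhibitor. In the laboratory mouse it was 157 CPM with PBS beads, from 35 UMIs (exact Poisson 95% interval 109 to 218), and 0 UMIs with FGF2/Nrg1 beads, which allows up to 10.3 CPM if the limit is set at 3 UMIs. The wound keratin was thus abundant in the 4 spiny mouse libraries, and of the 7 markers it is the one that the FGF2/Nrg1 cells lacked.

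Krt6a, the partner keratin of Krt16, was lower in level and differently spread, at 144, 103, 211 and 168 CPM in the spiny mouse libraries (DMSO, then the ErbB2, FGFR1/2/3 and ERK inhibitors) and 485 and 751 CPM in the mouse libraries (PBS, then FGF2/Nrg1). Stfa3 was the most abundant stefin of the spiny mouse cells, at 8651, 7346, 7956 and 6228 CPM, and stood at 714 and 561 CPM in the mouse. Krt1 was 31163, 36152, 27052 and 21154 CPM in the spiny mouse and 14831 and 10337 CPM in the mouse. Krt1 helped to choose the cluster and is no check of its name. In the FGF2/Nrg1 cells its median was 2228 CPM, against 4219 CPM for the basal keratin Krt14, and 9 of the 23 cells had at least 1% of their UMIs from Krt1. Krt16 and Krt6a ordered the libraries in different ways.

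Among clusters of at least 30 cells in the same library, cluster 9 had the highest Krt16, Krt6a, Stfa3 and Krt1 with the ErbB2 inhibitor (38 clusters) and with the FGFR1/2/3 inhibitor (36 clusters). With DMSO (42 clusters) it was the second for Krt16, after the inner root sheath cluster 37 at 6365 CPM, and the second for Krt6a, after suprabasal cluster 46 at 163 CPM. These ranks describe the choice of the cluster and are not a test.

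**Figure D1:**
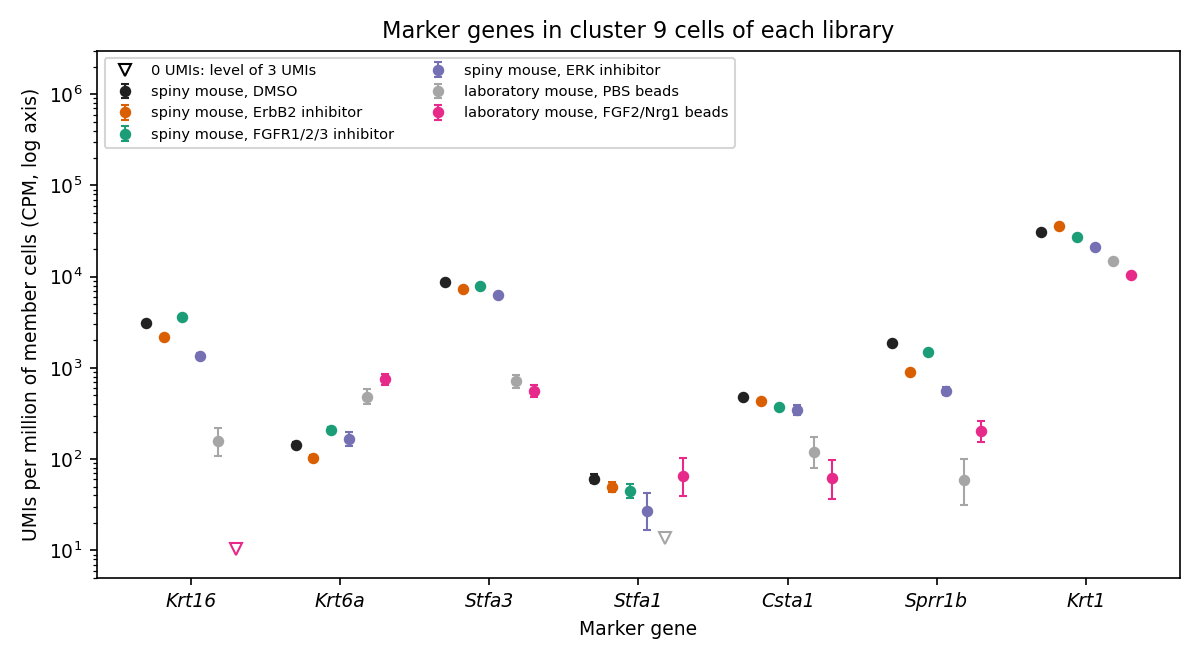
Level of the 7 marker genes (CPM over the member cells, log axis) in each of the 6 libraries, with exact Poisson 95% intervals; open triangles mark genes with 0 UMIs, drawn at the level of 3 UMIs. Krt16 runs from 1355 to 3645 CPM in the spiny mouse libraries and has 0 UMIs in the FGF2/Nrg1 library, and Krt6a runs from 103 to 211 CPM in the spiny mouse libraries.

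RNA released into the droplets sets a background for these abundant genes. Krt16 averaged 30.8 UMIs per member cell with DMSO and 0.59 per T cell of the same library, a cell type that should lack it. The corresponding means were 32.2 and 0.391 with the ErbB2 inhibitor, and 62.3 and 0.282 with the FGFR1/2/3 inhibitor. No marker with UMIs in the members of a library lay at the level of free RNA there. That level meant less than 3 times the lowest other cell type and more than 10-fold under the highest. Genes given as markers of this cluster could hardly lie so far under the highest cell type. The rule also reads sums over cells, so it does not place the typical member cell above the background. Median Krt16 with the ErbB2 inhibitor was 0 CPM. The basal keratin Krt5 was closer to the level of free RNA, with 69 UMIs per member cell against 10.5 per T cell with DMSO. It had 54 against 3.74 with the ErbB2 inhibitor and 97.7 against 2.66 with the FGFR1/2/3 inhibitor. T cells were shallower, and after thinning to 1000 UMIs fewer members than T cells had a Krt5 UMI, at 83.9% against 97.2%, 53.4% against 77%, and 56.8% against 73.1%. Thinning takes more UMIs from the deeper member cells, free RNA included, so these shares cannot place Krt5 at or above the background.

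Shares of cells with a Krt16 UMI were read against the same background. With DMSO, 70.8% of member cells (66.7 to 74.7; median depth 8311 UMIs) and 40.4% of T cells (median 1399.5 UMIs) had one. After each cell was thinned to 1000 UMIs the shares were 36.4% and 30.3%, which hardly parted members from T cells. The deeper member cells lost more of their free RNA in this step, so the thinned shares do not hold the same amount of it. Krt6a parted members and T cells clearly, with 30.8% of members and 0.301% of T cells before thinning, and 11.8% and 0.352% after it. With the ErbB2 inhibitor the thinned shares for Krt16 were 20.4% and 18%, and with the FGFR1/2/3 inhibitor 30.7% and 13%. The mean UMIs per cell parted members from T cells in all 3 libraries, and the thinned share did so clearly in the last of them.

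**Figure D2:**
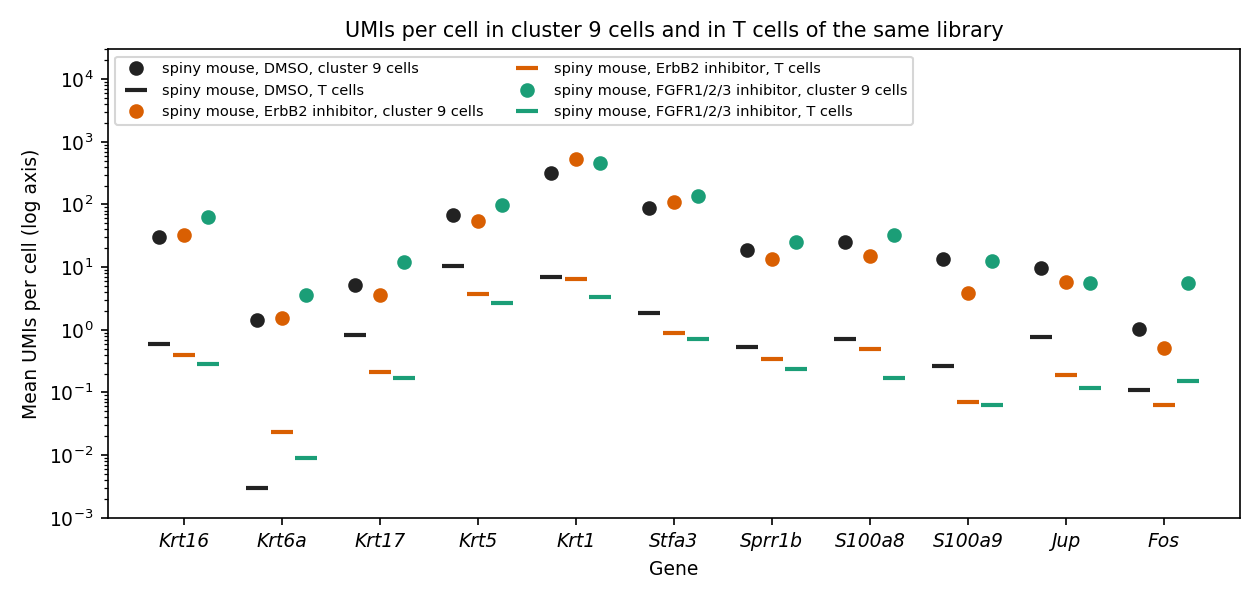
Mean UMIs per cell (log axis) of 11 genes in cluster 9 cells (points) and in T cells of the same library (bars) for the DMSO, ErbB2 inhibitor and FGFR1/2/3 inhibitor libraries. Krt16 is 30.8 against 0.59 with DMSO, and Krt5, at 69 against 10.5, stands closer to its T cells.

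A small number of cells held most of the Krt16. With DMSO, the median member cell had 206 CPM of Krt16 and the cell at the 90th percentile 11827. The medians with the ErbB2 and FGFR1/2/3 inhibitors were 0 and 67.4 CPM, and the 90th percentiles 5826 and 12262. The 10% of cells with most Krt16 held 77.8%, 90.4% and 70.8% of all Krt16 UMIs in these 3 libraries, against 23.4%, 15.3% and 15.3% for the same measure of Krt1. Krt1 was thus spread over the cluster and Krt16 was not.

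Cells with at least 1% of their UMIs from Krt16, a limit chosen after the values were seen, numbered 60 of 517 with DMSO (11.6%, 8.97 to 14.7), 26 of 367 with the ErbB2 inhibitor (7.08%, 4.68 to 10.2) and 19 of 176 with the FGFR1/2/3 inhibitor (10.8%, 6.63 to 16.3). They held 82.4%, 77.2% and 72.5% of the Krt16 UMIs. The limit cuts a range and not a separate group, since 43, 25 and 22 cells lay between 0.5 and 2 times the limit. Their intervals overlap across the libraries, which does not show that the shares were equal.

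The Krt16-rich cells were mostly not the Krt1-rich cells. With DMSO, 401 of the 517 cells had at least 1% of their UMIs from Krt1, 60 from Krt16, 11 from both and 67 from neither. With the ErbB2 inhibitor the numbers were 328, 26, 8 and 21 of 367, and with the FGFR1/2/3 inhibitor 146, 19, 6 and 17 of 176. Median Krt1 in the DMSO cells with Krt16 at or over the limit was 2272 CPM, against 32498 CPM in the rest. Median Krt10, the partner of Krt1, was 16964 against 64701 CPM.

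The same cells carried basal keratins. Median Krt5 with DMSO was 20052 CPM in the Krt16-rich cells and 2407 CPM in the rest, where the cells annotated as IFE basal had 20691 CPM as a sum over cells. With the ErbB2 inhibitor the medians were 21311 and 471 CPM, and with the FGFR1/2/3 inhibitor 27829 and 369 CPM. Krt14, the partner of Krt5, had medians of 7504 and 678 CPM with DMSO. The Krt1 and basal keratin levels of most of these cells thus went against the suprabasal name. Their median Krt10 was still 16964, 25815 and 11635 CPM with DMSO, the ErbB2 and the FGFR1/2/3 inhibitor. How much of this Krt10 was free RNA was not tested. Of the 60 DMSO cells, 11 also had at least 1% of UMIs from Krt1. A further 67 DMSO cells had under 1% of UMIs from each of Krt16 and Krt1, and Krt5 at the 75th percentile of all DMSO members was 15299 CPM. Median depth in the Krt16-rich cells and the rest was 8612 and 8198 UMIs with DMSO, 14762 and 14786 with the ErbB2 inhibitor, 19476 and 16256 with the FGFR1/2/3 inhibitor, and 2238 and 29330 with the ERK inhibitor, where 3 cells were Krt16-rich. No doublet caller was run.

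Stfa3 was high throughout and highest beside Krt16. Its medians were 18260 CPM in the Krt16-rich DMSO cells and 4392 CPM in the rest, 15901 and 2805 CPM with the ErbB2 inhibitor, and 13922 and 2410 CPM with the FGFR1/2/3 inhibitor. S100a8, a subunit of the alarm protein calprotectin, had medians of 7930 and 238 CPM with DMSO. Sprr1b differed from all of these, with medians of 752 CPM in the Krt16-rich DMSO cells and 822 CPM in the rest. The medians were 429 and 537 CPM with the ErbB2 inhibitor, and 335 and 929 CPM with the FGFR1/2/3 inhibitor.

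**Figure D3:**
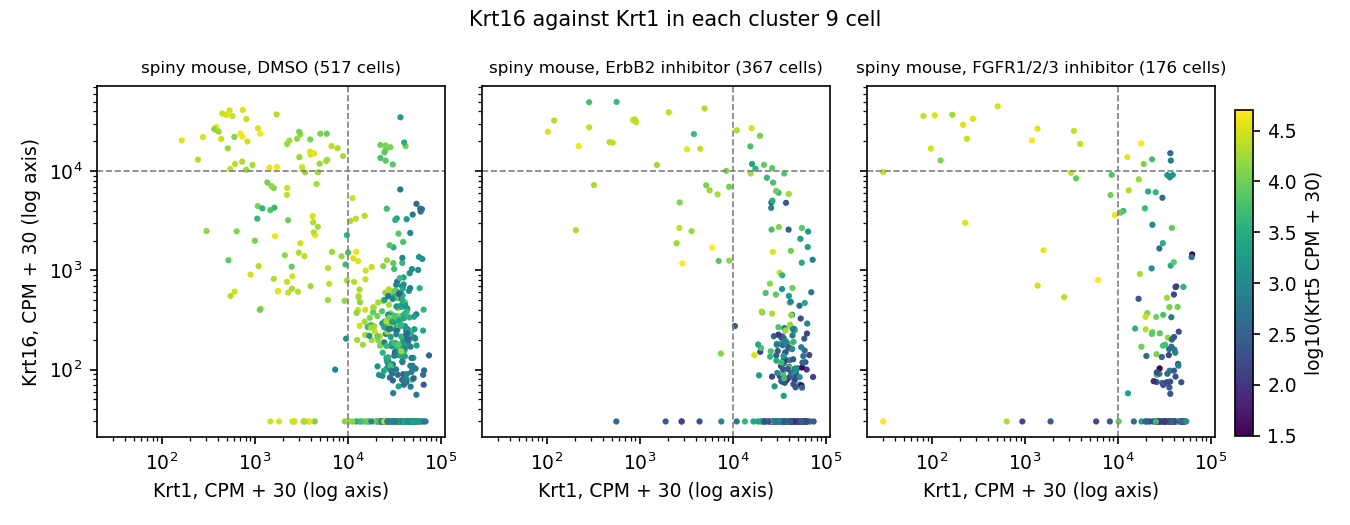
Krt16 against Krt1 in each cluster 9 cell (CPM + 30, log axes) of the DMSO, ErbB2 inhibitor and FGFR1/2/3 inhibitor libraries, coloured by Krt5; dashed lines mark 1% of a cell's UMIs. The 60 DMSO cells above the horizontal line lie mostly left of the vertical one and have high Krt5, and 11 of them are right of it.

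Rank correlations over cells thinned to 1000 UMIs (517, 367 and 176 cells with DMSO, the ErbB2 and the FGFR1/2/3 inhibitor, each set sharing 1 library) describe the same order. Krt16 went with Krt14 (Spearman's rho 0.52, 0.67 and 0.66), Stfa3 (0.47, 0.42 and 0.57), S100a8 (0.47, 0.39 and 0.44) and Krt6a (0.46, 0.36 and 0.43). It went against Krt1 (-0.48, -0.44 and -0.46) and showed no order with Sprr1b (0.05, -0.02 and -0.04). Krt1 and Krt10 went together (0.80, 0.65 and 0.69). Shares of the same UMI total tie abundant genes to each other, which adds to negative values.

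Set beside the other suprabasal clusters of the DMSO library, the sums of cluster 9 held both wound genes and spinous keratins. These sums mix cells, since 11 of the 60 Krt16-rich DMSO cells were also Krt1-rich. The summed wound keratins (Krt6a, Krt6b, Krt16 and Krt17) were 3739 CPM in cluster 9 and 186 CPM in cluster 5, the largest suprabasal cluster there, 1355 CPM in cluster 10 and 4116 CPM in cluster 46. The summed stefins were 12486, 3237, 3488 and 13770 CPM in clusters 9, 5, 10 and 46. Spinous and granular keratins were higher in clusters 5, 10, 27 and 35 than in cluster 9, at 104886, 101950, 136402 and 131225 CPM. These keratins parted clusters 9 and 46, at 97550 and 4741 CPM. Basal genes did so in the other direction, at 9899 and 49727 CPM. The cluster closest to cluster 9 in wound keratins and stefins was thus one rich in basal genes.

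**Figure D4:**
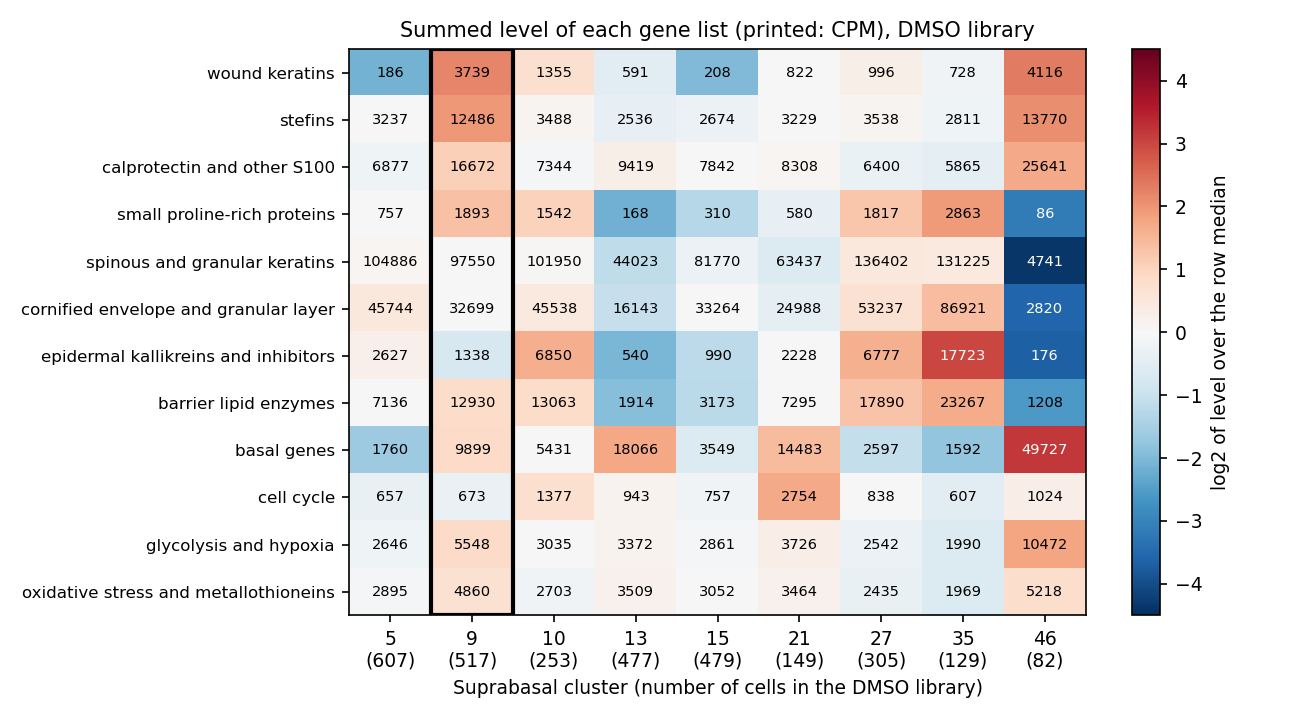
Summed CPM of 12 gene lists (printed in each cell) in the suprabasal clusters of the DMSO library with enough cells, coloured by the log2 of the level over the median of the row; cluster 9 is outlined. Wound keratins (3739 CPM) and stefins (12486 CPM) are high in clusters 9 and 46, but spinous keratins (97550 CPM in cluster 9) are low in cluster 46 (4741 CPM).

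Against cluster 5 in the DMSO library, 13.3% of 7709 genes were at least 1.5-fold higher in cluster 9 and 11.5% lower, a contrast that the clustering itself made. All 4 wound keratins were higher (median log2 ratio 4.90), as were 11 of 13 basal genes (1.23), 14 of 17 glycolysis and hypoxia genes (1.13) and 6 of 9 S100 genes (1.21). The median over all genes was 0.03. Krt16 was 3072 against 90.5 CPM, and Mmp9, a gelatinase of migrating keratinocytes, 159 against 7.58 CPM. Suprabasal cluster 46 of the same library had 2775 CPM of Mmp9. Col18a1, the source of a basement membrane collagen, was 208 against 8.95 CPM. Krt2, a keratin of the late spinous and granular layers, was 147 against 1960 CPM.

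Against cluster 10, a cluster with more of the granular layer genes, 11.2% of 6835 genes were higher and 33.4% lower, with a median of -0.24. Of the cornified envelope and granular layer genes, 13 of 14 were lower (median -3.80), and of the barrier lipid enzymes 9 of 11. Flg, the filaggrin gene of the granular layer, was 156 against 5974 CPM with DMSO, 103 against 8347 with the ErbB2 inhibitor and 130 against 6388 with the FGFR1/2/3 inhibitor. All 4 measured stefins were higher than in cluster 10. Stfa3 was 8651 against 1436 CPM and Krt6a 144 against 11 CPM. Fewer UMIs lay behind cluster 10, where Flg at 5974 CPM was 2720 UMIs, against 811 UMIs at 156 CPM in cluster 9. The fibroblast and red cell marker lists were higher in cluster 10, at 334 against 85.4 CPM and 938 against 295 CPM. Its inner root sheath, neutrophil and Schwann cell lists were lower. The part of depth and free RNA in the counts of higher and lower genes was not tested.

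With DMSO, the largest sums among the marker lists of cells outside the interfollicular epidermis were those of the neutrophil, the inner root sheath and the outer root sheath and companion layer lists, and the sebaceous gland list came next at 302 CPM. Inner root sheath genes (Krt71, Krt25, Krt27, Krt28, Krt73 and Tchh) summed to 1220 CPM with DMSO, against 50.4, 101 and 30 CPM with the ErbB2, FGFR1/2/3 and ERK inhibitors and 53.9 and 210 CPM with PBS and FGF2/Nrg1 beads. The outer root sheath and companion layer list summed to 781 CPM with DMSO and 495, 1036 and 386 CPM with the same inhibitors. Krt17, which is also a wound keratin, was its largest member, at 510, 241, 723 and 228 CPM. The neutrophil list made up 0.392% of UMIs with DMSO and 0.127%, 0.263% and 0.757% with the 3 inhibitors in the same order. Nearly all of it was S100a8 and S100a9, since the neutrophil genes Cxcr2 and Retnlg had 0 UMIs in the members of every library and Csf3r had 2, 1, 0 and 0 UMIs in the spiny mouse libraries. Cells with over 1% of UMIs from markers of other types numbered 13 with DMSO, 2 with the ErbB2 inhibitor, 1 with the FGFR1/2/3 inhibitor and 0 elsewhere.

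The study set each inhibitor against DMSO, and cluster 9 held the 30 cells required in both libraries for the ErbB2 and the FGFR1/2/3 inhibitor. A log2 ratio of CPM was taken with 1 UMI added to each count, for genes whose UMIs in the 2 libraries summed to 30 or more. A gene was counted as different at 1.5-fold or more. Both comparisons share the DMSO library, so a gene high there is low in both.

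With the ErbB2 inhibitor, as sums over cells, the spinous keratins and stefins measured in cluster 9 stayed within 1.5-fold of DMSO. Both calprotectin genes, 9 of 13 basal, 14 of 21 cell cycle and 6 of 10 immediate early genes were lower. Of 7780 genes, 280 (3.60%) were higher and 749 (9.63%) lower, and the median log2 ratio was -0.04. The markers go with the choice of the cluster, so close marker levels among its members are partly fixed. Of the 7 markers, 1 was lower and none higher. That gene was Sprr1b, at 1893 CPM with DMSO and 897 CPM with the inhibitor (log2 ratio -1.08, interval -1.13 to -1.03). In cluster 5 of the same libraries Sprr1b was 756 and 641 CPM.

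Of the wound keratins, 2 of 4 were lower. Krt17 was 510 CPM with DMSO and 241 CPM with the inhibitor (log2 ratio -1.08), and Krt6b went from 62 to 22 UMIs (-1.52, -2.34 to -0.84). Krt16 (-0.50) and Krt6a (-0.48) stayed inside 1.5-fold. The Krt16-rich cells held 11.9% of all UMIs of the cluster with DMSO and 7.2% with the inhibitor.

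Of the spinous and granular keratins, 0 of 5 differed. Krt1 was 31163 and 36152 CPM (log2 ratio 0.21) and Krt10 65676 and 71701 CPM (0.13). None of the 4 measured stefins differed as a sum over cells, with a median of -0.23, and Stfa3 had a log2 ratio of -0.24. The median member cell had 5312 CPM of Stfa3 with DMSO and 3189 CPM with the inhibitor. The 10% of cells with most Stfa3 held 38.6% and 46.3% of its UMIs. Of the cornified envelope and granular layer genes, 1 of 13 was higher and 3 lower. Cnfn, a cornified envelope protein, was 260 and 118 CPM (-1.14, and -0.34 after thinning to 1000 UMIs), and Krtdap, a differentiation-associated secreted protein, was 30049 and 43356 CPM (0.53).

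Of the S100 genes, 4 of 9 were lower and none higher. S100a8 was 2552 CPM with DMSO and 1007 CPM with the inhibitor (log2 ratio -1.34, -1.39 to -1.30), and S100a9, its partner in calprotectin, 1358 and 262 CPM (-2.38, -2.46 to -2.29). Both parts of the cluster showed this difference. S100a8 was 7560 and 3184 CPM in the Krt16-rich cells, and 1875 and 838 CPM in the others. Few cells held most of these UMIs. The 52 DMSO cells and 37 ErbB2 inhibitor cells with most S100a9 held 75.8% and 79.9% of it. For S100a8 the same numbers of cells held 62.6% and 72.4%. The intervals do not cover this spread between cells. Medians over all member cells were 366 and 94.6 CPM for S100a8, and 117 and 0 CPM for S100a9. In cluster 5 S100a8 was 230 and 225 CPM, and the free RNA in T cells was 0.705 and 0.492 UMIs of S100a8 per cell. S100a4 (-0.10) and S100a11 (-0.15), the S100 genes with most UMIs, stayed close to DMSO.

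Of the basal genes, 9 of 13 were lower (median -0.81). Krt5 was 6877 and 3648 CPM (log2 ratio -0.91), Col17a1, a hemidesmosome collagen, 253 and 145 CPM (-0.81), and Itgb4, its integrin partner, 189 and 66 UMIs (-1.57). Within the Krt16-rich cells Krt5 was 20768 and 18512 CPM, and in the other cells 4999 and 2495 CPM. Krt5 in T cells, which reads free RNA, was 5785 and 1568 CPM. With the free RNA of each library subtracted per cell, an alternative added after the data were seen, 8 basal genes were lower (median -0.69), and Krt15 moved from -1.35 to -0.38.

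Of the cell cycle genes, 14 of 21 were lower (median -1.32), and 12 of the 21 lay at the level of free RNA. The median was -0.63 over the 5 genes still measured after thinning to 1000 UMIs. Stmn1, a tubulin-binding protein of dividing cells, had 358 and 121 UMIs (log2 ratio -1.63), and Hmgb2, the member with most UMIs, 987 and 868 (-0.25). Mki67, a marker of dividing cells, was 13.7 and 9.2 CPM. With DMSO, 10.4% of members and 10.5% of T cells had an Mki67 UMI, and 1.74% and 6.69% after thinning to 1000 UMIs. Mki67 is not particular to keratinocytes, so T cells are no measure of its free RNA.

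The immediate early genes, which growth factor signals switch on within minutes, had 6 of 10 members lower (median -0.71). Fos was 104 CPM with DMSO and 34.6 CPM with the inhibitor (log2 ratio -1.58, -1.83 to -1.34), while Junb (-0.38) and Ier2 (0.20) stayed within 1.5-fold. In cluster 5 Fos was 48 and 24.5 CPM. Of the ERK feedback genes and targets, 4 of 9 were lower and 1 higher (median -0.57). Ier3 was 75.2 and 23 CPM in cluster 9 (-1.70), where cluster 5 had 73 and 67.9 CPM. Ccnd1, cyclin D1, had a log2 ratio of -0.57. None of the 7 measured ErbB and FGF ligands and receptors differed, and Erbb2 itself was 61.9 and 53.2 CPM.

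Other members showed differences in single genes. Jup, the plakoglobin gene of desmosomes, was 981 CPM with DMSO and 388 CPM with the ErbB2 inhibitor (log2 ratio -1.34), and in cluster 5 it was 964 and 378 CPM, so the difference was as large outside cluster 9. Of the 10 desmosome genes, Jup and Dsg3 were lower and none higher. Mmp9 was 159 and 61.4 CPM (-1.37), and 5 of 9 migration and proteolysis genes were lower. The 52 DMSO cells and 37 ErbB2 inhibitor cells with most Mmp9 held 87.9% and 94.9% of its UMIs. Il33, an alarm cytokine of keratinocyte nuclei, was 141 and 76.3 CPM (-0.88). Of the 16 oxidative stress and metallothionein genes, 2 were higher and 2 lower. Mt1 was 452 and 777 CPM (0.78), and in cluster 5 116 and 171 CPM, while Mt4 stayed inside 1.5-fold (0.27).

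Among the highest ratios with the ErbB2 inhibitor were those of Mxi1 (34 and 80 UMIs, log2 ratio 1.14), Osgin2 (1.07), Hpgds (1.05), Kdsr (1.04) and Btg3 (1.01). Btg3 was at 0.55 after thinning to 5000 UMIs, and Osgin2 (0.17) and Hpgds (0.58) fell inside 1.5-fold after thinning to 1000. The lowest were those of the inner root sheath genes Krt71 (1743 and 1 UMIs), Tchh (878 and 9), Krt27 (319 and 6) and Krt25 (3111 and 72), with Msmp (186 and 5) and Mgp (121 and 19). Without the cells with over 1% of UMIs from markers of other types, Krt71 went from -9.84 to -6.42 and Tchh from -6.53 to -4.62. Cluster 5 with DMSO also held 257 UMIs of Krt71. After thinning to 1000 UMIs, 6% of members and 16.2% of T cells had a Krt71 UMI with DMSO, against 0% of both with the inhibitor. The part of this background in the ratio was not tested.

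With the FGFR1/2/3 inhibitor, 5 of 10 immediate early genes of cluster 9, Fos and Fosb among them, were higher than with DMSO. The marker genes, as sums over cells, stayed within 1.5-fold, which the choice of the cluster partly fixes. Of 7404 genes, 360 (4.86%) were higher and 464 (6.27%) lower, with a median of 0.00. None of the 7 markers and none of the 4 wound keratins differed. Krt16 was 3072 CPM with DMSO and 3645 CPM with the inhibitor (log2 ratio 0.25), Krt17 510 and 723 CPM (0.50) and Krt6a 144 and 211 CPM (0.54, 0.39 to 0.70). Krt6a was at -0.03 after thinning to 1000 UMIs per cell and at 0.41 after thinning to 5000. Stfa3 (-0.12), Sprr1b (-0.35) and Krt1 (-0.20) were also close as sums over cells. Medians over member cells were 5312 and 3022 CPM for Stfa3, 819 and 893 CPM for Sprr1b, and 29922 and 30180 CPM for Krt1.

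Of the immediate early genes, 5 of 10 were higher and none lower (median 0.60). Fos was 104 and 331 CPM (log2 ratio 1.67, 1.52 to 1.83) and Fosb had 50 and 121 UMIs (2.05, 1.58 to 2.57). Fos was higher outside cluster 9 as well, at 48 and 238 CPM in cluster 5 and 28.9 and 113 CPM in endothelium. In T cells it stayed within 1.5-fold, at 59.9 and 69.5 CPM, with a Fos UMI in 16 of 332 and 11 of 110 cells. Dusp1, a phosphatase of MAP kinases, was 89.5 and 237 CPM (1.40), and in cluster 5 149 and 325 CPM.

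Among the ERK feedback genes and targets, 1 of 8 was higher and 1 lower. Dusp6, a phosphatase of ERK that ERK itself induces, had 19 UMIs with DMSO and 45 with the FGFR1/2/3 inhibitor (3.66 and 15 CPM, log2 ratio 1.99, 1.23 to 2.89). In cluster 5 Dusp6 was 3.9 and 6.81 CPM. Ier3 was 75.2 and 36.9 CPM (-1.02), and its log2 ratio was -0.49 after thinning to 5000 UMIs. Of the ErbB and FGF ligands and receptors, 3 of 6 were higher, all with few UMIs. Areg, an EGFR ligand, had 39 and 62 UMIs (1.44, 0.85 to 2.07), and the intervals of Hbegf and Erbb3 included 0.

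Of the basal genes, 6 of 13 were lower with the FGFR1/2/3 inhibitor (median -0.56), and 4 after subtraction of free RNA (median -0.20). Krt5 was 6877 and 5722 CPM (log2 ratio -0.27) and Krt14 2228 and 2083 CPM (-0.10), so the basal keratins stayed close. Itgb1, the shared integrin chain of the basal layer, had 278 and 44 UMIs (-1.85). Of the cell cycle genes 13 of 21 were lower (median -0.99), and 10 after the subtraction (median -0.45), with 11 of the 21 at the level of free RNA. The median was -0.29 after thinning to 5000 UMIs and -0.05, over 4 genes, after thinning to 1000. Stmn1 had 358 and 72 UMIs (-1.51).

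S100a9 was 1358 and 724 CPM (log2 ratio -0.91) and S100a8 2552 and 1897 CPM (-0.43), with 3 of 9 S100 genes lower. The 52 DMSO cells and 18 FGFR1/2/3 inhibitor cells with most S100a9 held 75.8% and 81.3% of its UMIs. For S100a8 the same numbers of cells held 62.6% and 75.5%. Mmp9 was 159 and 52.6 CPM (-1.59), and the same numbers of cells held 87.9% and 98.1% of its UMIs. Jup was 981 and 325 CPM (-1.59, -1.70 to -1.50), and in cluster 5 964 and 309 CPM. Serpinb3a, an epithelial protease inhibitor, was 182 and 87.5 CPM (-1.05). Of the barrier lipid enzymes 3 of 12 were higher and 1 lower, and Fabp5, a fatty acid carrier, was 12368 and 17165 CPM (0.47). None of the 17 glycolysis genes and none of the 20 ribosomal protein genes differed.

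The highest ratios with the FGFR1/2/3 inhibitor were those of Fosb, Nupr1 (36 and 72 UMIs, log2 ratio 1.77), Fos, Areg, Dusp1 and Wipi1 (1.14). The lowest were again Krt71 (1743 and 9 UMIs), Msmp (186 and 1), Tchh (878 and 11), Krt27 (319 and 5), Krt25 (3111 and 189) and Mgp (121 and 9). The DMSO library is shared by both comparisons, and the thinned share of T cells with a Krt71 UMI, 16.2% there, was 0% with the FGFR1/2/3 inhibitor.

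**Figure D5:**
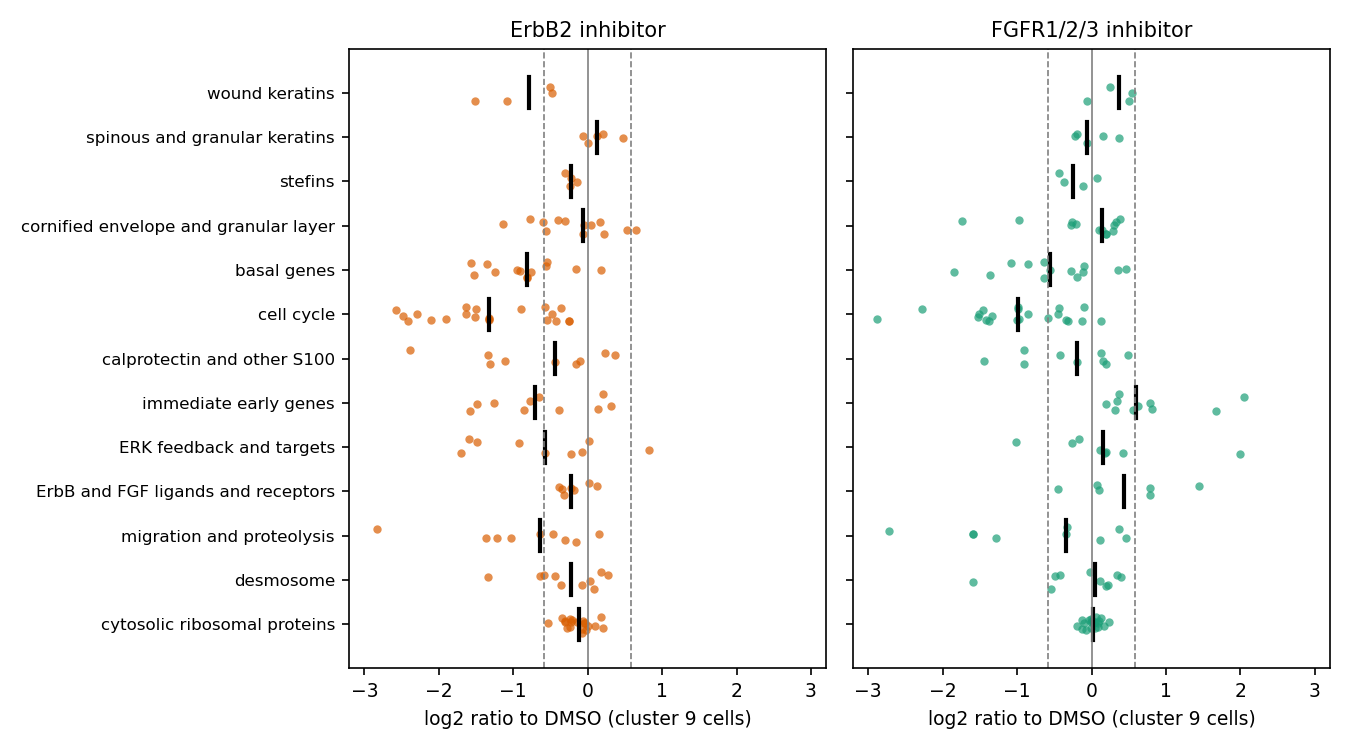
Log2 ratio to DMSO of each measured gene (points) of 13 lists in cluster 9 cells, for the ErbB2 inhibitor (left) and the FGFR1/2/3 inhibitor (right); black bars are list medians and dashed lines mark 1.5-fold. Immediate early genes have a median of -0.71 on the left and 0.60 on the right, and cell cycle genes lie mostly below 0 in both.

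The ERK inhibitor library had 29 member cells and is given by its levels. S100a8 was 4979 CPM and S100a9 2590 CPM, and 3 of the 29 cells held 70.7% of the S100a8 UMIs and 79.5% of the S100a9 UMIs. Cluster 7 of that library, annotated as circulating monocytes, had 205969 CPM of S100a8. Sprr1b was 562 CPM, the lowest of the 4 spiny mouse libraries. Krt5 was 4577 CPM, Jup 330 CPM and Fos 30 CPM. Krt16 reached 1% of UMIs in 3 of the 29 cells, which held 65.5% of its UMIs. Hmox1, a heme-degrading enzyme induced by oxidative stress, had 107 UMIs (146 CPM) here and 5, 3 and 2 UMIs with DMSO, the ErbB2 and the FGFR1/2/3 inhibitor. It was named after its values were seen, as was Cdkn2a, a cell cycle inhibitor, at 124 CPM with the ERK inhibitor and 40.3 CPM with DMSO.

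The 13 PBS and 23 FGF2/Nrg1 cells of the laboratory mouse had Krt1, Krt6a and stefins, and Krt16 only with PBS beads. There its 157 CPM was the highest of 28 clusters, but the outer root sheath cluster 12, at 144 CPM, lay inside its counting interval. With FGF2/Nrg1 beads Krt6a was the highest of 29 clusters, at 751 CPM against 639 CPM in the next. In those cells 2 of 23 held 87.6% of the Krt6a UMIs. Their leading gene by ratio to the other cells of the library was the stefin relative Cstdc5, at 2083 and 1532 CPM. Sprr1b was 58.4 and 203 CPM, Krt10 17677 and 14924 CPM, Krt5 1876 and 4766 CPM, and Krt14 7739 and 20165 CPM. S100a8 was 8.98 and 6.89 CPM, far below Stfa3 in the same cells at 714 and 561 CPM. None of the 13 or 23 cells had 1% of its UMIs from Krt16. Most suprabasal cells of the mouse were in clusters 39 (147 and 145 cells) and 41 (136 and 118 cells), so that cluster 9 held few of them.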

How the data were processed

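Ear tissue was dissociated and 10x Chromium 3′ libraries were made, per the labels' protocols. Cell Ranger 6.1.1 and the mouse build GRCm38 (mm10) are named in the submitters' processing notes. For the spiny mouse reads, the reference used is not given in the sources used here. As deposited by the authors, one table holds whole-number UMI counts for 20381 genes in 39577 cells, and a second gives the library, cluster, cell type and, per the file headers, percent of mitochondrial, ribosomal and haemoglobin UMIs of each cell. The members and the gene lists (28 programme lists and 19 marker lists) were chosen with earlier results of these data known.

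UMI counts of the member cells were summed per library (222778 to 5437417 UMIs, so the mouse libraries are the least precise) and scaled to CPM. Ratios were log2 with 1 UMI added, with exact conditional binomial 95% intervals. The tools were Python 3.11.15 with numpy 2.4.6 and scipy 1.17.1, and edgeR 4.0.16 for TMM factors only. Ratios were read with at least 30 cells in both libraries. Cell filters of the authors were kept, and no doublet caller was run. Steps were tested on simulated data.

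Named genes were the 7 markers, the 6 highest and 6 lowest ratios with at least 100 UMIs and the same sign after thinning and as a mean over cells, up to 4 members of each list with most UMIs, and 8 genes each way against clusters 5 and 10. Other named list members were picked after their values were seen. Not every gene that the rule names is reported here. Alternatives were other pseudocounts, minimums, scalings, a mean over cells, thinning, and leaving out cells.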

Additional observations from a re-analysis of the deposited data

How the results depend on the processing

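No paired analysis was possible because each group was 1 library. For the same reason no library could be left out. The ERK inhibitor and bead comparisons were not run under any alternative, since fewer than 30 member cells were present. Counts of genes at 1.5-fold followed the minimum number of UMIs. With the ErbB2 inhibitor, 101 of 5465 genes were higher and 291 lower at a minimum of 100 UMIs. At a minimum of 1 UMI, 1283 of 12850 were higher and 2879 lower. With the FGFR1/2/3 inhibitor the counts were 109 and 145 of 4990 genes, and 1732 and 1859 of 12656. Taken as a mean over cells, 585 of 7404 genes were higher and 748 lower with the FGFR1/2/3 inhibitor. Thinning to 1000 UMIs leaves fewer genes measured, so its counts are to be read against their totals. It gave 292 lower of 2877 genes with the ErbB2 inhibitor, where 749 of 7780 were lower as reported. With the FGFR1/2/3 inhibitor it gave 232 higher and 195 lower of 2473 genes, against 360 and 464 of 7404 as reported. Thinning to 5000 UMIs, added after seeing the data, gave 481 lower of 5665 genes with the ErbB2 inhibitor. Of the other count settings, 30 stayed within 1.5 times, subtraction of free RNA (added after seeing the data) and TMM scaling among them. Single genes changed sign in 4 cases. Ccl20 (0.63 as reported) was at -0.44 and Notch1 (-0.78) at 0.38 with the ErbB2 inhibitor at 1000 UMIs. With the FGFR1/2/3 inhibitor, Col17a1 (-0.64) was at 0.12 at 1000 UMIs and Krt15 (-0.85) at 0.04 after subtraction of free RNA. The cause was not tested. Of the named genes at 1.5-fold or more, 28 of 34 with the ErbB2 inhibitor and 17 of 23 with the FGFR1/2/3 inhibitor remained so in the same direction at 1000 UMIs, 30 and 22 at 5000 UMIs, and 33 and 21 after subtraction of free RNA. The highest and lowest genes were named only if thinning kept their sign, so these counts are partly fixed by the choice. Of all named values at 1000 UMIs, 60 stayed within their counting interval, 121 moved outside it and 3 changed sign. The PBS, FGF2/Nrg1 and ERK inhibitor values are limited by few member cells, at 13, 23 and 29.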
